A study of Homo sapiens with 6 samples.

Results

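The genes described here are 8 transcription factors of pancreatic and epithelial cell identity, namely SOX9, SOX4, ONECUT2, GATA6, FOXA2, PDX1, ELF3 and GRHL2. They were taken by symbol from the platform annotation, with every probe set assigned to that gene and to no other, which gave 25 of the 54613 non-control probe sets and 8 of 19775 genes. The measurements came from Panc-1, an established human line grown from a pancreatic adenocarcinoma, and asked how its transcripts changed in the epithelial-mesenchymal transition (EMT) that TGFβ induces. The study counts Panc-1 among its mesenchymal-like pancreatic lines. The 3 TGFβ-treated cultures were kept in serum-free medium for 24 h and then received 5 ng/mL porcine TGFβ1 for 48 h (the study's methods give the dose as 5 nM), and the 3 untreated cultures had the same serum-free period and then control medium. The experiment was run 3 times in this one line, each RNA was hybridized to one Affymetrix HG U133 Plus 2.0 array, and no other genotype, agent or tumour was involved. The p-values therefore describe the spread between repeats of a single line. Because these are bulk arrays, fewer cells carrying a transcript and less of it per cell cannot be told apart.

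The 8 factors belong to 2 programmes that overlap in the duct epithelium. FOXA2 opens chromatin for the foregut and pancreatic programme and in the mouse is needed for PDX1 transcription, while PDX1, GATA6, SOX9 and ONECUT2 act in pancreatic progenitors, and SOX9 stays on in adult ducts. GRHL2 and ELF3 hold genes of cell adhesion and epithelial differentiation active, and GRHL2 is known to oppose EMT. SOX4 acts in endocrine development in the mouse and is a known target of TGFβ signalling in epithelial cells.

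Values are log2 signals as deposited, and differences are TGFβ-treated minus untreated on that log2 scale. A probe set counted as measured when its mean signal reached 100, or 6.64 on the log2 scale, in at least 1 of the 2 groups. This left 19101 probe sets and 10115 genes, with a gene being the mean of its measured probe sets. Changes were tested with limma, with the repeat as a block, and called at an adjusted p (Benjamini-Hochberg over all genes or probe sets) under 0.05. Probe sets differ in how strongly they bind their target, so no test or fold sets one probe set or gene against another in level. The median signal of the 6 arrays lay between 5.14 and 5.21.

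FOXA2, SOX4 and SOX9 were measured, with 8 probe sets in all, and these 8 reached the limit in both groups. The other 5 genes, ONECUT2, GATA6, PDX1, ELF3 and GRHL2, stayed below it in both groups on each of their 14 probe sets, as did 2 further probe sets of SOX4 and 1 of FOXA2. At the gene level, FOXA2 fell, SOX4 rose slightly and SOX9 was not past the threshold. Of the 3 measured genes 2 were thus called, against 58.7% of all genes, and 5 of the 8 measured probe sets were called, against 55.1% of all probe sets, so the counts stood near the background. The groups did not overlap on 4 of the 8, against 65.5% of all measured probe sets. Across all genes the median difference was -0.01 and the median of its size was 0.21.

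**Figure D1:**
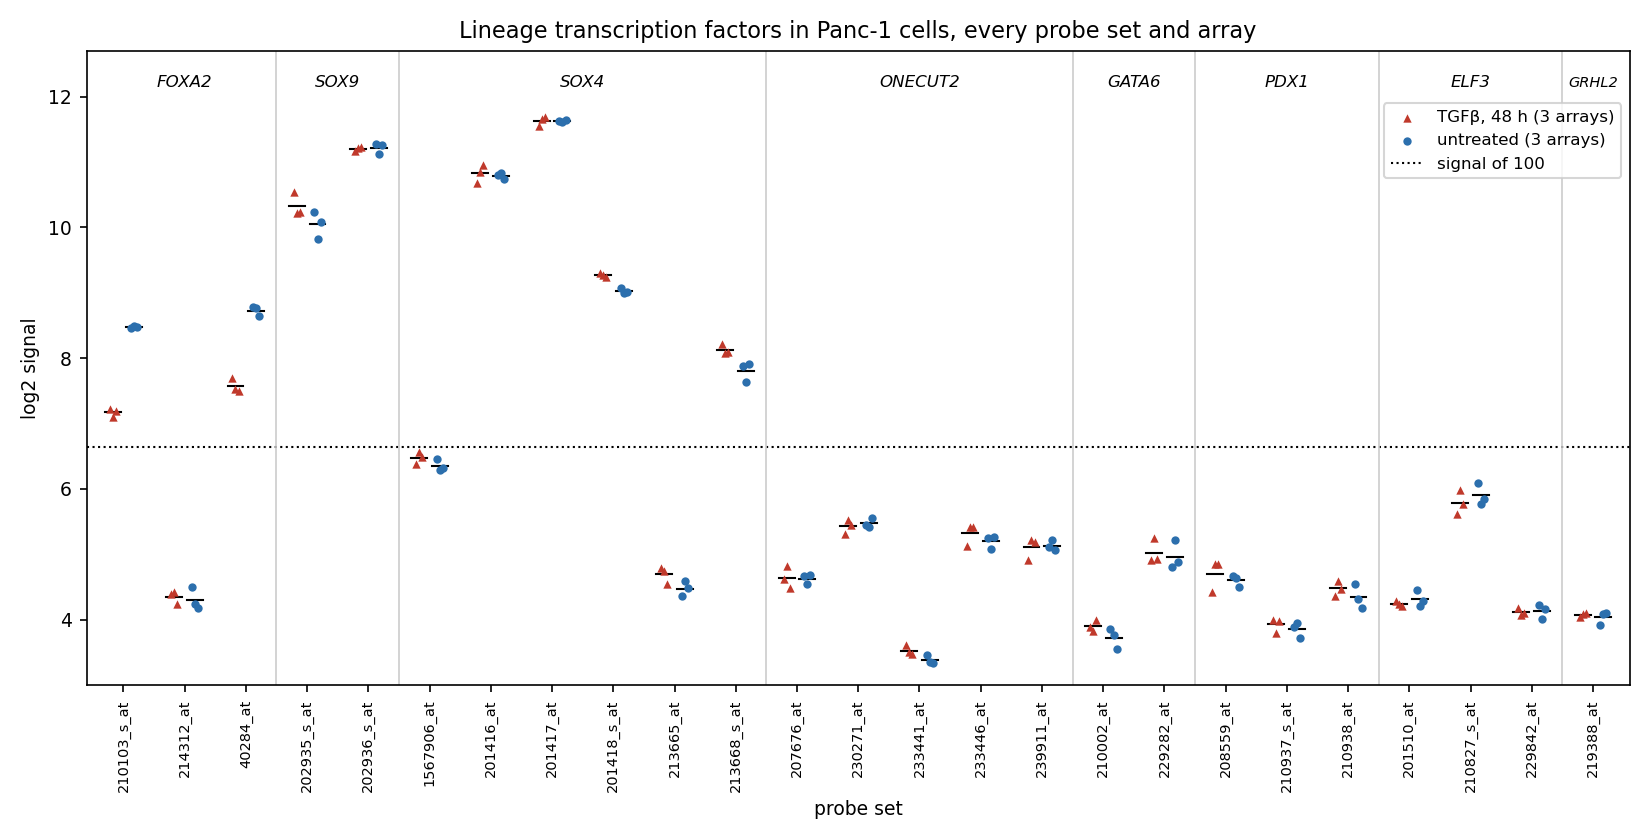
Log2 signal of each of the 25 probe sets on the 3 TGFβ-treated and 3 untreated arrays, grouped by gene, with the horizontal line at the signal limit of 100. Short black bars are group means. The group means of the FOXA2 probe sets 210103_s_at and 40284_at lie more than 1 log2 unit apart, and all probe sets of ONECUT2, GATA6, PDX1, ELF3 and GRHL2 lie below the line.

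FOXA2 (Entrez gene 3170), the forkhead factor of the foregut endoderm, was the member that changed most. The gene value was 7.46, 7.31 and 7.35 in the TGFβ-treated cultures of repeats 1, 2 and 3, against 8.62, 8.63 and 8.56 in the untreated cultures. Every treated culture was more than 1 log2 unit below every untreated one, so the groups did not overlap, as was the case for 68.2% of all genes. The mean was 7.37 ± 0.075 with TGFβ and 8.60 ± 0.040 without (SD, n = 3 each), or a signal of 166 against 388. The difference was -1.23 (SE 0.054, 95% confidence interval -1.36 to -1.10, limma adjusted p = 2.01e-05), which is 2.34-fold lower. Within the repeats it was -1.16, -1.31 and -1.21. Among all 10115 genes, 126 (1.25%) had a larger fall, and a fall was called for 31.0% of genes.

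Both measured FOXA2 probe sets carried the fall, which was called for 28.5% of all probe sets. Probe set 210103_s_at gave 7.22, 7.10 and 7.19 with TGFβ, against 8.46, 8.49 and 8.47 without, a difference of -1.30 (SE 0.059, adjusted p = 3.31e-05). Probe set 40284_at gave 7.70, 7.53 and 7.50 with TGFβ, against 8.77, 8.76 and 8.64 without, a difference of -1.15 (SE 0.059, adjusted p = 4.87e-05). Whether the probe sets of a gene changed unequally was tested with limma's diffSplice, which called 32.5% of the 4452 genes with several measured probe sets. FOXA2 did not pass (adjusted p = 0.182). The remaining probe set, 214312_at, was dim, at 4.40, 4.42 and 4.24 with TGFβ and 4.50, 4.24 and 4.17 without, with the groups overlapping. When the signal limit was dropped, this dim probe set entered the gene mean, and the FOXA2 difference became -0.80 (adjusted p = 1.00e-04).

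SOX4 (Entrez gene 6659), an HMG-box factor of the SoxC group, rose by a small amount. The gene value was 9.93, 9.96 and 9.99 in the TGFβ-treated cultures, against 9.84, 9.77 and 9.82 in the untreated cultures. The treated cultures were all above the untreated ones, with less than 0.1 between the nearest values of the groups. The mean was 9.96 ± 0.029 with TGFβ and 9.81 ± 0.038 without (SD, n = 3 each), a difference of 0.15 (SE 0.050, 95% confidence interval 0.028 to 0.27, 1.11-fold higher, limma adjusted p = 0.0419). A rise was called for 27.7% of genes, and 62.5% of all genes changed by a larger amount in either direction. The SOX4 call was lost without repeat 2 (0.13, adjusted p = 0.227) and without repeat 3 (0.14, adjusted p = 0.197). With the brightest probe set alone in place of the mean, the value was 0.0065 (adjusted p = 0.929).

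The SOX4 probe sets did not change equally (diffSplice adjusted p = 0.0362). Probe set 213668_s_at gave 8.21, 8.08 and 8.10 with TGFβ, against 7.88, 7.64 and 7.91 without, a difference of 0.32 (SE 0.068, adjusted p = 0.00875). Probe set 201418_s_at gave 9.30, 9.27 and 9.24 with TGFβ, against 9.08, 9.0 and 9.01 without, a difference of 0.24 (SE 0.054, adjusted p = 0.0105). In both, all treated cultures were above all untreated ones, and a rise was called for 26.6% of all probe sets. Without repeat 2 neither was called (0.26, adjusted p = 0.0657 for 213668_s_at, and 0.23, adjusted p = 0.0852 for 201418_s_at), and without repeat 3 the call on 201418_s_at was lost as well (adjusted p = 0.0549). Probe set 201416_at gave 10.67, 10.84 and 10.95 with TGFβ, against 10.80, 10.84 and 10.74 without, and its difference was 0.031 (SE 0.077, adjusted p = 0.754). Probe set 201417_at gave 11.55, 11.65 and 11.68 with TGFβ, against 11.62, 11.61 and 11.64 without, and its difference was 0.0065 (SE 0.057, adjusted p = 0.931). The groups overlapped on both of these, so the gene-level rise rested on 2 of its 4 measured probe sets. Probe set 1567906_at lay just below the signal limit, at 6.38, 6.57 and 6.48 with TGFβ and 6.46, 6.29 and 6.33 without. Probe set 213665_at was dim, with 4.79, 4.75 and 4.54 in treated cultures and 4.36, 4.59 and 4.48 in untreated ones.

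SOX4 was the one measured member with a promoter entry in the RefSeq table used here, in which ONECUT2, GATA6 and ELF3 were also matched (4 of 8), while SOX9, FOXA2, PDX1 and GRHL2 were not. The SOX4 window is shown for that reason, and any part of its sequence in the small SOX4 difference was not tested. The window runs from 250 bases before to 50 bases after the annotated start, at chr6:21593501-21593800 of GRCh38.p14 on the plus strand, and has a GC content of 49.3%. Capitals mark GTCTG, the reverse complement of CAGAC, the short element known to be bound by the SMAD proteins that carry the TGFβ signal. The match begins 4 bases before the start.
SOX4 promoter: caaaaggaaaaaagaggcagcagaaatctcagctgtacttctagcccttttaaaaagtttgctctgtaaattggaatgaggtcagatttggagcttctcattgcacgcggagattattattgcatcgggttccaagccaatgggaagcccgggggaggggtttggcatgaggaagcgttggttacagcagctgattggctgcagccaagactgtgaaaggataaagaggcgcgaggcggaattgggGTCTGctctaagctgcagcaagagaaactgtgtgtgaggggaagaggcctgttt
CAGAC, searched on both strands, was in 45.3% of the 35116 promoter windows of this length, so such a match is frequent. Among the dim members, the windows of ELF3 and GATA6 also held 1 match each, and that of ONECUT2 held 0. The letters CAGGTG (an E-box of the kind that ZEB and SNAI repressors bind; 20.6% of windows) and TATAAA (11.5% of windows), also searched on both strands, were not in the SOX4 window. The SOX4 window held the GTCTG match alone, so no searched motifs overlapped in it.

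SOX9 (Entrez gene 6662), the HMG-box factor of pancreatic progenitors and duct cells, did not pass the threshold as a gene. Its value was 10.85, 10.72 and 10.73 with TGFβ, against 10.75, 10.47 and 10.67 without. The groups overlapped, since the treated cultures of repeats 2 and 3 lay below the untreated culture of repeat 1. The mean was 10.77 ± 0.076 with TGFβ and 10.63 ± 0.14 without (SD, n = 3 each), a difference of 0.14 (SE 0.057, 95% confidence interval -0.0037 to 0.27, limma adjusted p = 0.0847). The interval leaves room for a rise of the size seen for SOX4 and for no change.

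The 2 SOX9 probe sets also differed in their change (diffSplice adjusted p = 0.0374). Probe set 202935_s_at gave 10.54, 10.22 and 10.24 with TGFβ, against 10.23, 9.82 and 10.08 without. Its groups overlapped in level, but the treated culture was above its untreated partner in each repeat, by 0.31, 0.39 and 0.15, and the difference of 0.28 was called (SE 0.067, adjusted p = 0.0129). Probe set 202936_s_at gave 11.17, 11.21 and 11.23 with TGFβ, against 11.27, 11.12 and 11.26 without, and its difference was -0.014 (SE 0.063, 95% confidence interval -0.17 to 0.14, adjusted p = 0.860). The call on 202935_s_at was lost without the block (adjusted p = 0.0792) and without repeat 2 (0.0947). The unequal change of the 2 probe sets was lost without the block (adjusted p = 0.134) and when any 1 repeat was left out (0.0828 to 0.161).

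As a measure of RNA or labelling quality, the difference between the 3' and 5' control probe sets of actin beta was 0.33 ± 0.060 log2 units with TGFβ and 0.55 ± 0.031 without, and for GAPDH it was -0.03 ± 0.023 with TGFβ and -0.0096 ± 0.0096 without (SD, n = 3 each). The part of this difference in the unequal probe sets of SOX4 and SOX9 was not tested. The 10 measured housekeeping genes, set beside 58.7% of all genes called, had a median difference of 0.04. Of these, PGK1 (0.46, or 0.29 without the signal limit) and ACTB (0.27) rose and GUSB (-0.40), SDHA (-0.20) and B2M (-0.18, or -0.10 and not called without the signal limit) fell, so that each of the 5 changed by more than the 0.15 of SOX4. Without repeat 2, SDHA and B2M were not called (adjusted p = 0.116 for SDHA and 0.0830 for B2M), and without repeat 3 B2M was not called (adjusted p = 0.133).

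**Figure D2:**
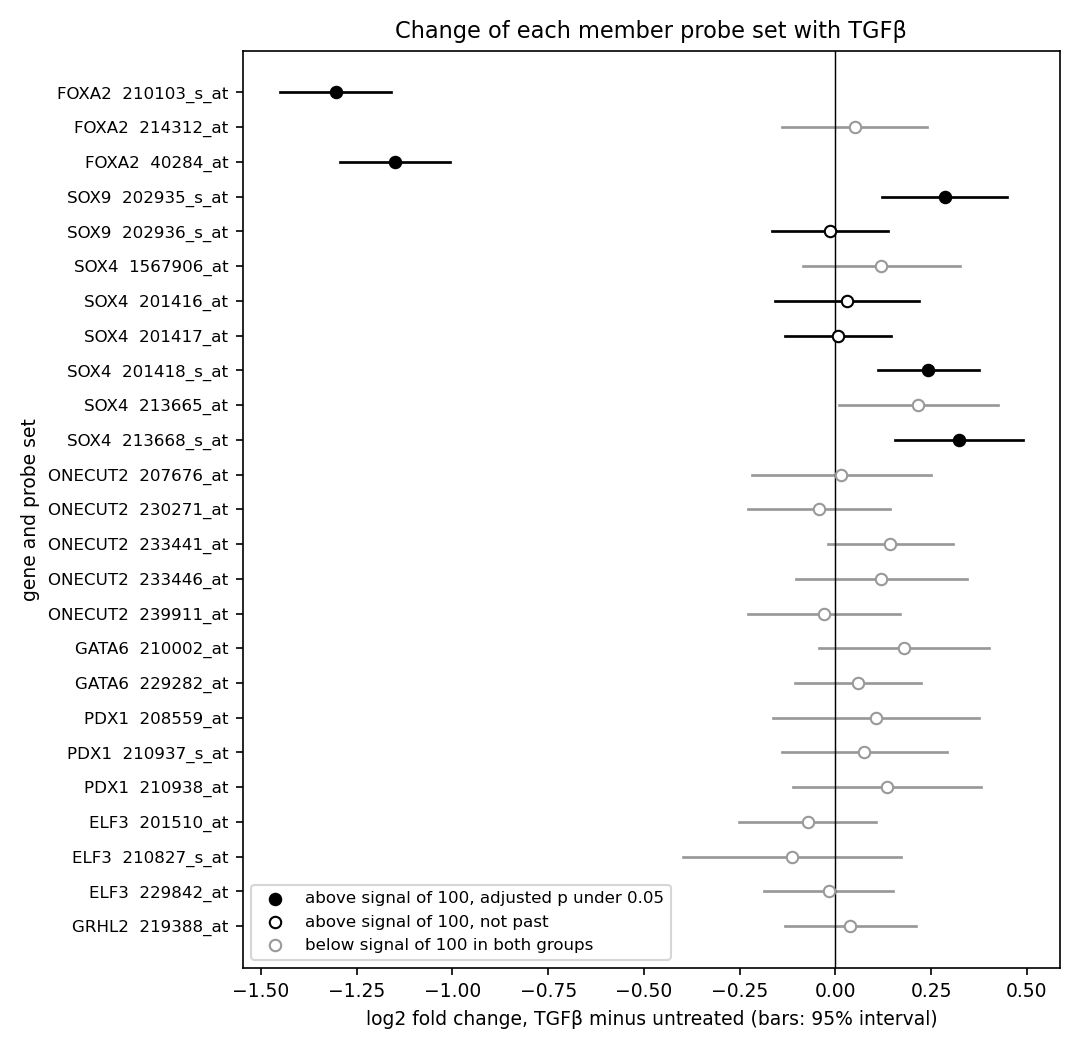
Log2 difference, TGFβ-treated minus untreated, for each of the 25 probe sets, with 95% confidence intervals from limma. Filled black points are measured probe sets with an adjusted p under 0.05, open black points are measured but not past it, and grey points lie below a signal of 100 in both groups and come from the fit without the signal limit; only 2 FOXA2 probe sets lie left of -1.

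**Figure D3:**
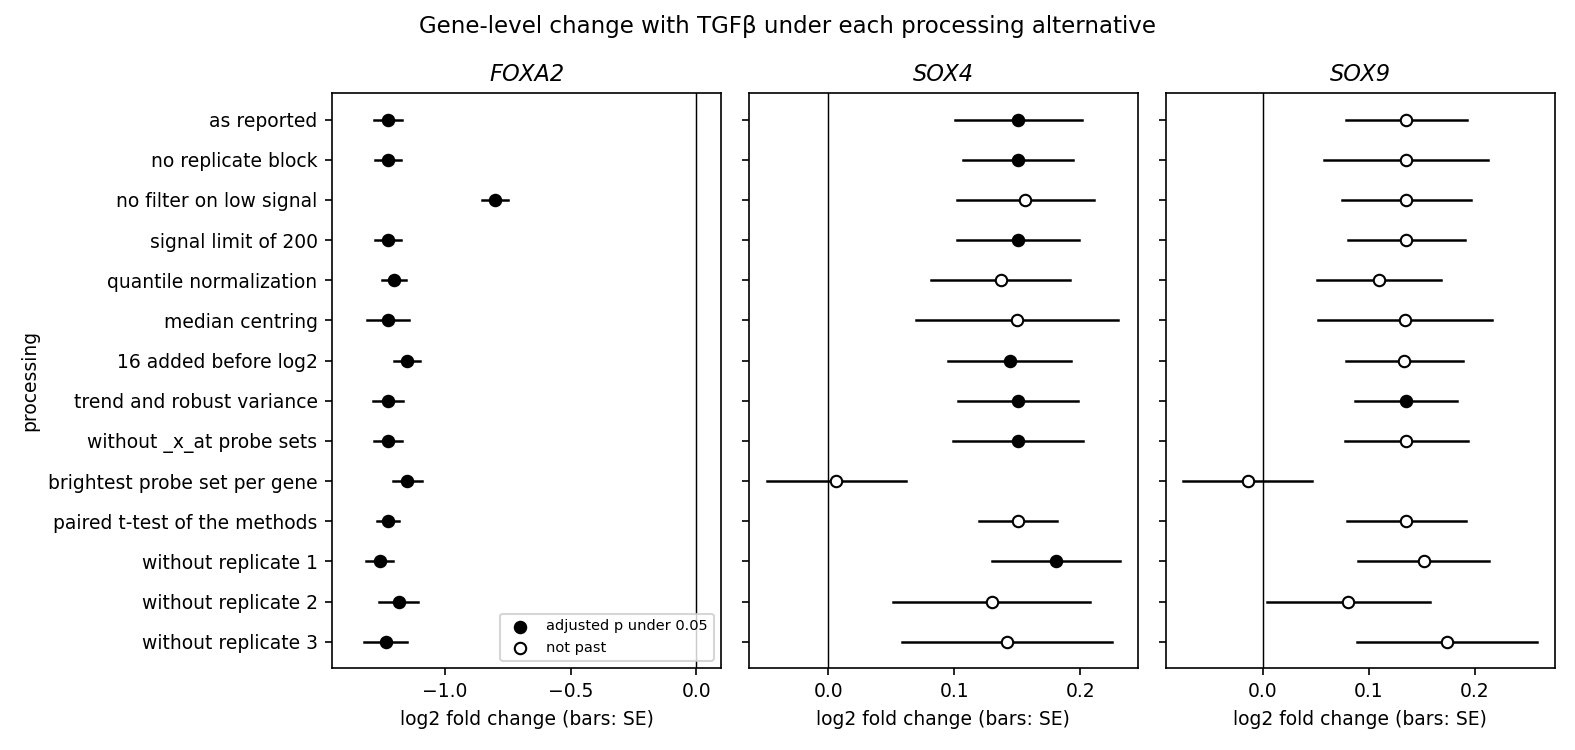
Gene-level log2 difference of FOXA2, SOX4 and SOX9 under each way of processing the data, with standard errors and with filled points for an adjusted p under 0.05. FOXA2 was called in every row, SOX4 in some and SOX9 with the trended robust variance alone.

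The other factors gave dim signals. The log2 signal of the 17 dim member probe sets lay between 3.34 and 6.57, and 13 of them were at or below the median of their arrays, while 35.0% of all probe sets were above the limit. In a limma fit with no signal limit, which called 20.2% of all probe sets, 0 of these 17 were called (adjusted p from 0.146 to 0.947), with differences between -0.11 and 0.22. SOX4 213665_at was the 1 of the 17 under 0.05 before adjustment. The groups did not overlap on 1 of the 17, ONECUT2 233441_at, against 20.2% of all probe sets below the limit.

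Among the pancreatic factors, PDX1 (Entrez gene 3651), the homeobox factor without which no pancreas forms, averaged 4.37 ± 0.096 with TGFβ and 4.27 ± 0.12 without over its 3 probe sets. GATA6 (Entrez gene 2627), a zinc finger factor of pancreas formation whose expression marks the classical subtype of pancreatic cancer, averaged 4.46 ± 0.072 with TGFβ and 4.34 ± 0.14 without over 2 probe sets. ONECUT2 (Entrez gene 9480), a cut homeobox factor of liver and pancreas development, averaged 4.80 ± 0.090 with TGFβ and 4.76 ± 0.034 without over 5 probe sets (SD, n = 3 each for these genes). In each of the 3 genes the groups overlapped. ONECUT2 233441_at, the probe set whose groups did not overlap, gave 3.61, 3.50 and 3.47 with TGFβ, against 3.47, 3.35 and 3.34 without, and was not called (0.14, adjusted p = 0.223).

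Of the epithelial factors, GRHL2 (Entrez gene 79977), the grainyhead factor that activates CDH1 and other junction genes, had a single probe set, 219388_at, with 4.04, 4.08 and 4.10 in treated cultures and 3.91, 4.09 and 4.10 in untreated ones. ELF3 (Entrez gene 1999), an ETS factor largely restricted to epithelia, averaged 4.72 ± 0.042 with TGFβ and 4.78 ± 0.13 without over 3 probe sets (SD, n = 3 each). Its highest values were those of 210827_s_at, at 5.62, 5.98 and 5.76 with TGFβ and 6.09, 5.76 and 5.85 without. The groups of both genes overlapped. Across the 5 dim genes the fitted differences ran from -0.07 to 0.12, the adjusted p from 0.222 to 0.709 (26.8% of all genes were called in that fit), and the 95% confidence intervals within -0.24 and 0.30. A transcript near the background of the array has its change compressed, so these intervals describe the signal and not the transcript.

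The genes whose pattern over the 6 arrays was most like that of each measured member were found by the root mean square difference, after centring each gene on its untreated mean. For FOXA2 these were SMIM14 (0.027) and F8 (0.032), with log2 differences of -1.25 and -1.27. For SOX4 they were TPI1 (0.018) and ZNF384 (0.022), and for SOX9 BRD2 (0.036) and ZNF142 (0.039). These are descriptions of likeness among 10115 genes, with no test.

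Other regulators of the pancreatic programme were mostly below the limit as well. Of 33 listed genes 25 were analysed here and 4 were measured. Of the 3 that reached the limit in both groups HES1 rose and 0 fell, with a median of -0.18 beside -0.01 for all genes. All genes, of which 27.7% and 31.0% were called higher and lower, reached the limit in at least 1 group. HES1, the Notch target that restrains endocrine differentiation, was 9.20 ± 0.027 with TGFβ and 7.93 ± 0.16 without, a difference of 1.28 (SE 0.078), or 0.84 without the signal limit. GLIS3, a zinc finger factor of beta cell development, was 7.01 ± 0.16 with TGFβ and 5.76 ± 0.085 without (SD, n = 3 each), a difference of 1.25 (SE 0.090), and reached the limit in the treated cultures alone, so it is left out of the count and the median. MNX1 (-0.19, adjusted p = 0.188) and MEIS2 (-0.18, adjusted p = 0.0569) were not past the threshold. The paralogues of FOXA2 were dim, FOXA1 at 3.89 with TGFβ and 4.0 without and FOXA3 at 4.90 with TGFβ and 4.43 without, and in the fit with no signal limit FOXA3 was called higher (0.47, adjusted p = 0.00623).

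Among other epithelial transcription factors, 18 of 20 listed genes were analysed and 10 were measured, of which 1 rose and 7 fell, against 27.7% and 31.0% of all genes, with a median of -0.36. KLF4, among the 7, was not called in the limma fit with no signal limit (-0.16, adjusted p = 0.0981). The largest falls were in TFAP2C and TFAP2A, AP-2 factors of surface ectoderm and epithelia, and in GRHL3, a grainyhead paralogue of GRHL2. TFAP2C was 8.0 ± 0.14 with TGFβ and 9.60 ± 0.022 without, a difference of -1.60 (SE 0.064), or -1.09 without the signal limit. TFAP2A was 8.53 ± 0.023 with TGFβ and 9.71 ± 0.079 without, a difference of -1.17 (SE 0.051), or -0.82 without the signal limit. GRHL3 was 7.29 ± 0.18 with TGFβ and 8.16 ± 0.053 without (SD, n = 3 each), a difference of -0.87 (SE 0.083). The fall of GRHL3 was not past the methods' paired t-test after adjustment (adjusted p = 0.0603). ELF1, a broadly expressed ETS factor, rose by 0.25 (SE 0.048), a call that was lost without repeat 2 (0.24, adjusted p = 0.05003). GRHL1 was below the limit, at 5.22 with TGFβ and 5.72 without, and was called lower in the fit with no limit (-0.50, adjusted p = 0.000927).

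In lists of genes related to the members by family, cofactor role or name, directions were mixed. Of all genes 27.7% were called higher and 31.0% lower. Of 13 other SOX genes 3 were measured, with a median of -0.26, and SOX13 (-0.83, SE 0.059, or -0.55 without the signal limit) and SOX8 (-0.26, SE 0.051) fell while SOX12 was not past the threshold (-0.07, adjusted p = 0.265). SOX8, at a signal of 104 with TGFβ and 125 without, was not past the methods' paired t-test after adjustment (adjusted p = 0.0596). A list of 10 other GATA factors, GATA cofactors and GATAD genes, which are not GATA factors, had 6 measured, with 4 higher, 1 lower and a median of 0.28. The GATA factors among the measured were GATA2 and GATA3 alone, and they changed in opposite directions. GATAD2A (0.55), GATAD1 (0.40) and GATAD2B (0.28), subunits or relatives of chromatin repressor complexes, rose, although GATAD2A became 0.30 without the signal limit and was not past the methods' test after adjustment (adjusted p = 0.0515), and GATAD2B became -0.089 without the signal limit and was not called without repeat 2 (0.21, adjusted p = 0.0921). GATA3 also rose (0.28, SE 0.059), and GATA2, which acts in blood and endothelial development, fell (-0.23, SE 0.054), a call lost without the signal limit (-0.17, adjusted p = 0.112), without repeat 2 (-0.20, adjusted p = 0.0954) and without repeat 3 (-0.21, adjusted p = 0.0730).

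**Figure D4:**
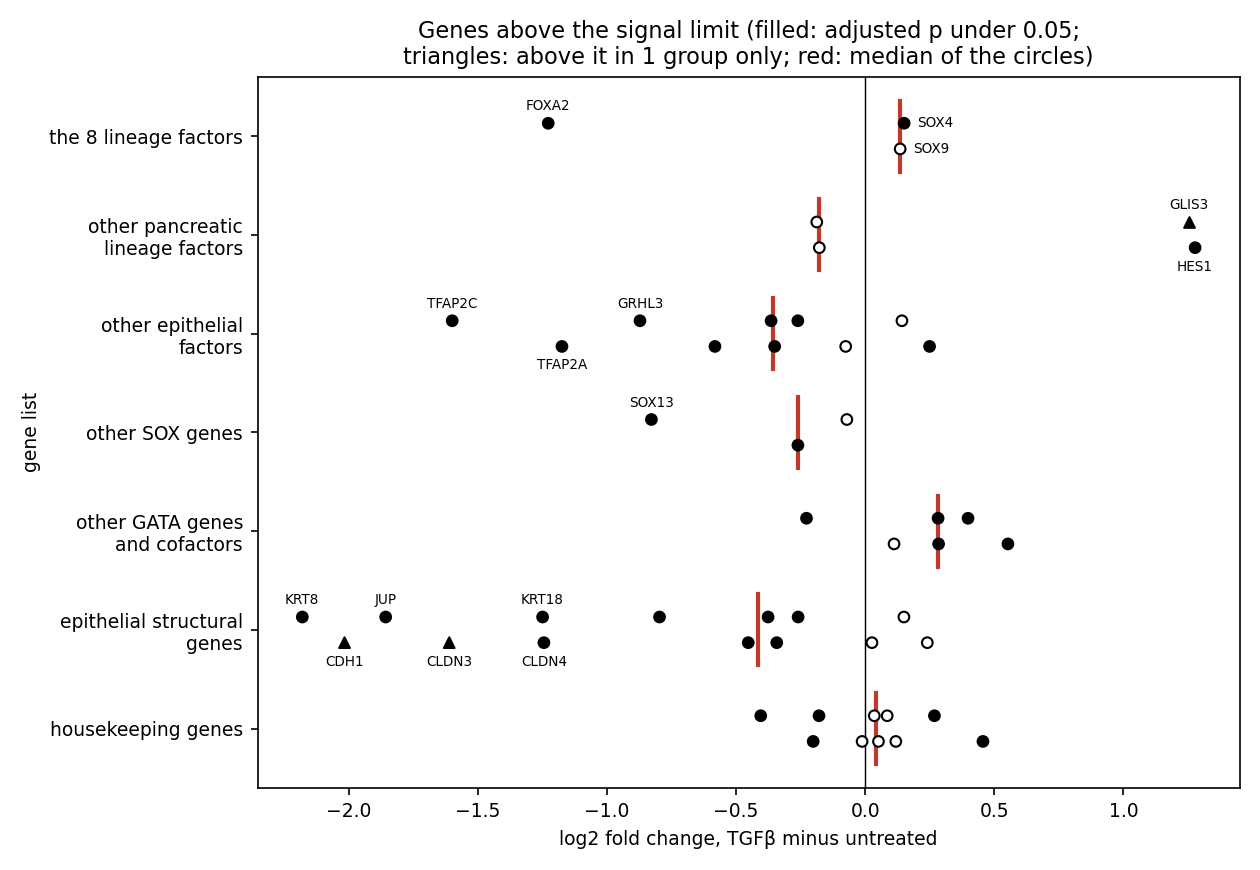
Log2 difference, TGFβ-treated minus untreated, of each gene above the signal limit, in rows for the 8 lineage factors, 5 companion lists and the housekeeping genes. Filled points have an adjusted p under 0.05, triangles are above the limit in 1 group only and red bars are the medians of the circles; FOXA2 lies at -1.23 beside SOX4 and SOX9 near 0.1, and the epithelial structural genes have a median of -0.41.

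GRHL2 and ELF3 were dim in both groups, and a list of epithelial genes was set beside them. Regulation of the listed genes by these factors was not tested. Of 25 such genes of junctions and keratins 23 were analysed and 14 measured. Of the 12 that reached the limit in both groups 0 rose and 9 fell, with a median of -0.41. All genes, of which 27.7% and 31.0% were called higher and lower, reached the limit in at least 1 group. The other 3 of the 12 had differences above 0 that were not past the threshold, SPINT1 (0.026), OCLN (0.15) and KRT7 (0.24, adjusted p = 0.0569). KRT8 (-2.18, SE 0.059), JUP (-1.86, SE 0.067), KRT18 (-1.25, SE 0.051) and CLDN4 (-1.24, SE 0.075, or -0.58 without the signal limit), which build keratin filaments, desmosomes and tight junctions, fell. PKP3 and DSP, also among the 9, were not called in the limma fit with no signal limit (-0.17, adjusted p = 0.130, and -0.26, adjusted p = 0.0522). Above the limit in the untreated cultures alone were CDH1, the E-cadherin gene, at 5.56 with TGFβ and 7.58 without (-2.02, SE 0.11, or -1.19 without the signal limit), and CLDN3, at 6.64 with TGFβ and 8.25 without (-1.61, SE 0.062, or -1.01 with the brightest probe set).

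Markers of duct cells were examined in the same cultures. Of 12 duct markers 11 were analysed and 6 were measured, of which CA2 rose (0.21, lost without repeat 2 and without repeat 3, adjusted p = 0.0635 and 0.0863) and KRT8, KRT18, EPCAM and MUC1 fell, with a median of -0.57. Of all genes 27.7% were called higher and 31.0% lower. KRT8, KRT18, EPCAM and MUC1 were also counted in the list of epithelial genes above, so these falls are not a separate observation. KRT7 was in both lists as well and was not past the threshold. The summed linear signal of the 11 (each gene as the mean of all its probe sets) was 4744 to 4995 in the TGFβ-treated cultures and 11961 to 12222 in the untreated cultures. KRT8 and KRT18 made up most of it, with 4012 to 4246 with TGFβ and 11069 to 11282 without, while the other 9 summed to 732 to 781 with TGFβ and 892 to 940 without. These sums are of array signal and do not compare transcript amounts between genes. The duct markers KRT19, CFTR and SPP1 were below the limit in both groups. In the fit with no limit KRT19 was called lower (-0.66, adjusted p = 0.000626) and SPP1 higher (0.65, adjusted p = 0.000561). Of the acinar (7), fibroblast and stellate (12) and leukocyte (8) markers analysed, 0 were measured, and their summed signals were 169 to 186, 258 to 269 and 186 to 204 with TGFβ and 166 to 176, 251 to 254 and 195 to 201 without. Of 9 islet markers CHGB alone was measured and fell (-0.61, SE 0.066), with summed signals of 349 to 364 with TGFβ and 398 to 460 without. The falls of EPCAM and CHGB were not called under every alternative run. The part of these markers in the fall of FOXA2 was not tested.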

How the data were processed

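Total RNA of 3 TGFβ-treated and 3 untreated Panc-1 cultures was hybridized to Affymetrix HG U133 Plus 2.0 arrays. The values deposited by the authors are log2 signals per probe set. Which software summarized and normalized them was not given in the sources read, and array medians differed by less than 0.1. No raw intensities were used, and the number of arrays limits the precision. Probe sets were named by the platform annotation: 41091 had 1 gene, 1801 several and 11721 none, and 62 controls were left out. Probe sets with a mean signal of at least 100 in 1 group were kept, averaged per gene, and tested with limma 3.58.1 (R 4.3.3), with the repeat as a block, as in the paired test that the methods name (2 residual degrees of freedom). P-values were adjusted by Benjamini-Hochberg. The test of unequal probe sets (diffSplice), and counting list genes only where they reached the limit in both groups, were added after the data were seen. Companion genes named are those past the threshold with a change of at least 2-fold, otherwise up to 3 per direction, and defining markers. GATA3 was named after its values were seen. FOXA1, FOXA3 and GRHL1, paralogues of members, and MNX1, MEIS2, SOX12, SPINT1 and OCLN, not past the threshold, were named outside this rule. Other dim list genes called in the fit with no limit were not named. Among them GATA5, CDH3, SOX2 and NR5A2 were lower and BHLHA15 and CDX2 higher. The members and lists were chosen with earlier results of these data known. Alternatives covered the block, signal limit, normalization, added constant, variance model, probe set choice, test and single repeats.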

Additional observations from a re-analysis of the deposited data

How the results depend on the processing

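FOXA2 fell past the threshold under every alternative run, with a difference between -1.26 and -0.80. The SOX4 and SOX9 gene-level results did not hold in the same way. The SOX4 difference was no longer past the threshold with no signal limit (0.16), after quantile normalization (0.14), after median centring (0.15), with the brightest probe set per gene (0.0065), with the methods' t-test (0.15) and at an adjusted p under 0.01 (0.15), and it ran from 0.13 to 0.18 when a repeat was left out. The SOX9 difference of 0.14 passed with a trended, robust variance (adjusted p = 0.0388) and was -0.014 with the brightest probe set. The number of measured member genes called was therefore 1 in place of 2 under each of those SOX4 alternatives, and 1 to 2 with a repeat left out. Of the measured member probe sets, 3 in place of 5 were called with the methods' t-test or at an adjusted p under 0.01, and 2 to 5 with a repeat left out (2 without repeat 2). The methods' t-test, after Benjamini-Hochberg adjustment, called 2414 genes in place of 5934 and 3274 probe sets in place of 10524.

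The adjusted p for unequal probe sets was 0.188 for SOX4 with no signal limit, 0.0694 with median centring and 0.047 to 0.401 with a repeat left out. For SOX9 it was 0.0600 with no signal limit, 0.0800 with median centring and 0.0828 to 0.161 with a repeat left out, and for FOXA2 it was 1.84e-06 with no signal limit, where the dim probe set 214312_at enters. Probe sets near 0 changed sign: after quantile normalization SOX4 201416_at was -0.016 and SOX4 201417_at -0.033, and with a repeat left out SOX9 202936_s_at ran from -0.069 to 0.030, SOX4 201416_at from -0.059 to 0.11 and SOX4 201417_at from -0.014 to 0.043. GATAD2B was -0.089 with no signal limit. The cause of these changes was not tested.

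The repeat numbers were not shown to pair the cultures: deviations from the group means correlated by -0.29, 0.24 and 0.06 between same-numbered arrays. Without the replicate block 6265 genes and 11058 probe sets were called, FOXA2 was -1.23 (adjusted p = 8.34e-07), SOX4 0.15 (adjusted p = 0.0172) and SOX9 0.14 (adjusted p = 0.163), and 4 of the 8 measured member probe sets were called. The unequal change of the SOX9 probe sets had an adjusted p of 0.134 without the block. With 3 arrays a group and 2 residual degrees of freedom, differences as small as that of SOX4 lie at the edge of what can be called, and for the dim factors the intervals describe the signal only.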
